A study of Homo sapiens with 6 samples.

Results

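The aminoacyl-tRNA synthetases are the enzymes that join each amino acid to its transfer RNA (tRNA). They were followed here with the scaffold proteins AIMP1 and AIMP2, as a list of 37 gene symbols, of which 32 were measured among the 17687 named genes of the array. Membership follows from the gene name. Measured were 16 of the 19 listed cytosolic synthetases, 15 of the 16 listed mitochondrial synthetases and AIMP1. MARS1, QARS1, VARS1, TARS2 and AIMP2 were not matched to a probe set by symbol and are not analysed here.

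Cells keep separate synthetases for the cytosol and for mitochondria, mostly from separate nuclear genes whose symbols end in 1 and in 2. GARS1 and KARS1 are exceptions, since each gives both the cytosolic and the mitochondrial enzyme. In mammalian cells several cytosolic synthetases (those for arginine, glutamate and proline, glutamine, isoleucine, leucine, lysine and methionine) are held together with AIMP1 and AIMP2 in the multi-synthetase complex, while the others work outside it. Many cytosolic synthetase genes are known targets of the transcription factor ATF4, which is made when amino acids are short.

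Total RNA was measured on 6 Clarion S arrays, 1 for each of 3 human non-small cell lung cancer lines and 2 conditions. PC-9 and HCC827 have a mutant form of the receptor for epidermal growth factor (EGFR) and were exposed for 6 hours to 0.01 µM erlotinib, an inhibitor of the EGFR kinase, or served as control. H322 has the wild-type receptor and was exposed for 6 hours to the ligand EGF (100 µg/ml in the labels' own words) or served as control. The medium held TNFa (tumour necrosis factor alpha), and the labels do not say whether that includes the controls. Each line is a single established line with 1 array per condition, so culture, array and condition cannot be told apart within a line, and fewer transcripts per cell cannot be told apart from fewer cells making them. For erlotinib the EGFR-mutant lines count as 2 replicates, while EGF was tried in 1 line and has no replicate.

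Levels are log2(intensity + 1) of the probe set of a gene, and each difference is treated minus control on that scale. The background of an array is the 95th percentile of its 612 negative control probe sets and lay between 6.92 and 7.47, and 48.8% to 52.4% of named genes were above it on each array. All 6 epithelial marker genes were above it on all 6 arrays, while 4 of 5 leukocyte markers were above it on none and CD68 on 5. Of the 5 measured fibroblast and endothelial markers 3 were above it on none, VWF on 1 and COL1A2 on 5. Of the genes used to check EGFR output, FOSL1, an AP-1 subunit, differed by -5.08 in PC-9 and -5.17 in HCC827 with erlotinib and by 2.20 in H322 with EGF. With erlotinib 3 of the 6 check genes passed limma's test over all genes as lower, namely FOSL1, the ERK phosphatase gene DUSP6 and the early response gene EGR1 (adjusted p = 9.2e-05, 0.00861 and 0.0326). Of all genes 0.916% passed as lower. SPRY4, an inhibitor of the pathway, and the transcription factor genes MYC and ETV4 did not pass (adjusted p = 0.0664, 0.104 and 0.321 in limma). EGR1 was below the negative controls on both PC-9 arrays and differed by -0.21 with EGF in H322.

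Cytosolic synthetases were detected throughout, and some mitochondrial ones were not. All 16 measured cytosolic synthetases and AIMP1 exceeded the negative controls on all 6 arrays. Of the 15 mitochondrial synthetases 9 were above on all 6 arrays. Among all 17687 named genes 7405 were above on all 6 arrays and 7325 on none. AARS2, EARS2, LARS2 and VARS2, the mitochondrial enzymes for alanine, glutamate, leucine and valine, were above on none. MARS2, the mitochondrial methionine enzyme, was above on the HCC827 control array alone, and PARS2, the mitochondrial proline enzyme, on all but the H322 control array. No fold is given where both arrays of a pair were below the negative controls.

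Promoter windows are printed for the genes that lead the erlotinib results. They are RefSeq windows of GRCh38.p14, from 250 bases before to 50 bases after an annotated start. FARSB, on chromosome 2 at 222566899 to 222656092, encodes the beta subunit of the cytosolic phenylalanine enzyme, and MARS2 lies on chromosome 2 at 197705369 to 197708395. HARS1 and HARS2, the cytosolic and mitochondrial histidine enzymes, lie head to head on chromosome 5, with 84 bases between their starts at 140691370 (minus strand) and 140691455 (plus strand), and their windows share 184 bases. In the shared stretch the capitals run from one start to the other, both start bases included, and in MARS2 they mark CACGTG, the E-box to which MYC and related factors can bind. The FARSB window held neither motif that was searched and is in lower case.
FARSB, chr2:222656043-222656342, minus strand: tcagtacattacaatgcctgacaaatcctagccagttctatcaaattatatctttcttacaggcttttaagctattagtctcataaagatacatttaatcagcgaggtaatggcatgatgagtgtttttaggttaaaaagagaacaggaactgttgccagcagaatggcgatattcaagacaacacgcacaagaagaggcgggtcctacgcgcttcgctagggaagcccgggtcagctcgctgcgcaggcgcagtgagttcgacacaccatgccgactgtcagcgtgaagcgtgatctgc
HARS1-HARS2, chr5:140691321-140691504, plus strand: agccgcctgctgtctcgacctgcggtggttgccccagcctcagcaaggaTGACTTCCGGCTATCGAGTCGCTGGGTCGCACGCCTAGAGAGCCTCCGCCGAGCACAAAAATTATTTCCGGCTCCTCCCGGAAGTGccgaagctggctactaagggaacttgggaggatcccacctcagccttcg
MARS2, chr2:197705119-197705418, plus strand: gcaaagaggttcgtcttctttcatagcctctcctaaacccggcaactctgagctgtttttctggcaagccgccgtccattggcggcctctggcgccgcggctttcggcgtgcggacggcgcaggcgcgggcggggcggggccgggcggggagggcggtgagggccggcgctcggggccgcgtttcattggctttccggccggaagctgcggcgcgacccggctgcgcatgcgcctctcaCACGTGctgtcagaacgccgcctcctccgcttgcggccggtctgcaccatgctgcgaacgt

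The first question was what inhibition of EGFR did to the synthetase genes. FARSB was the 1 measured member that passed the test over all genes, and it fell. Its log2 signal was 12.16 in PC-9 with erlotinib and 13.13 in the PC-9 control, and 13.16 in HCC827 with erlotinib and 13.99 in the HCC827 control. Erlotinib thus went with a signal 1.96-fold lower in PC-9 and, in HCC827, 1.78-fold lower. The HCC827 erlotinib signal was level with the PC-9 control, so the groups overlap across lines, while within each line the erlotinib array was the lower. The mean difference was -0.90 ± 0.14 (limma's moderated SE, n = 2 lines; adjusted p = 0.0308 in limma). Of all 17687 genes 0.916% passed as lower and 0.565% as higher, and among the 7405 genes above the negative controls on all 6 arrays 1.57% passed as lower. Of the members 1 of 32 passed as lower and 0 as higher. The call depended on the settings, and the adjusted p of FARSB was 0.0521 when dim genes were left out, 0.178 in limma fitted without a trend and 1 without the cell line as a block.

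HARS1, RARS1 and MARS2 stood next to FARSB without passing. The HARS1 signal was 11.51 in PC-9 with erlotinib and 12.28 in its control, and 12.04 in HCC827 with erlotinib and 12.67 in its control, which is 1.70-fold and 1.55-fold lower with erlotinib (-0.70 ± 0.15, limma adjusted p = 0.0763). Centring the arrays on their medians, quantile normalization and raising dim signals to the negative controls each took HARS1 past the threshold (adjusted p = 0.035, 0.0182 and 0.00251 in limma). Each of these settings also raised the number of lower calls over all genes. No member passed with dim genes left out, without a trend or without the cell line as a block. RARS1, the arginine enzyme of the multi-synthetase complex, had 11.83 in PC-9 with erlotinib against 12.40 in its control, and 11.01 in HCC827 with erlotinib against 11.53 in its control. Its mean difference of -0.54 ± 0.16 had a limma adjusted p of 0.167.

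MARS2 had the most negative difference of any measured member in both lines, but at dim signal. It had 5.90 in PC-9 with erlotinib and 6.92 in its control, both below the negative controls, and 6.76 in HCC827 with erlotinib, also below them, against 8.32 in its control. In HCC827 it was at least 2.62-fold lower with erlotinib. The mean difference was -1.29 ± 0.28 (limma adjusted p = 0.0779), and it passed with centred arrays and with quantile normalization (adjusted p = 0.0443 and 0.0192 in limma). Under both settings more genes passed as lower in all. With the isoleucine enzyme IARS1 (-0.40 ± 0.17, limma adjusted p = 0.329), 5 members were lower at an unadjusted p under 0.05, and no member was higher at that level. Of all genes 6.83% were lower and 7.53% higher by that measure.

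**Figure D1:**
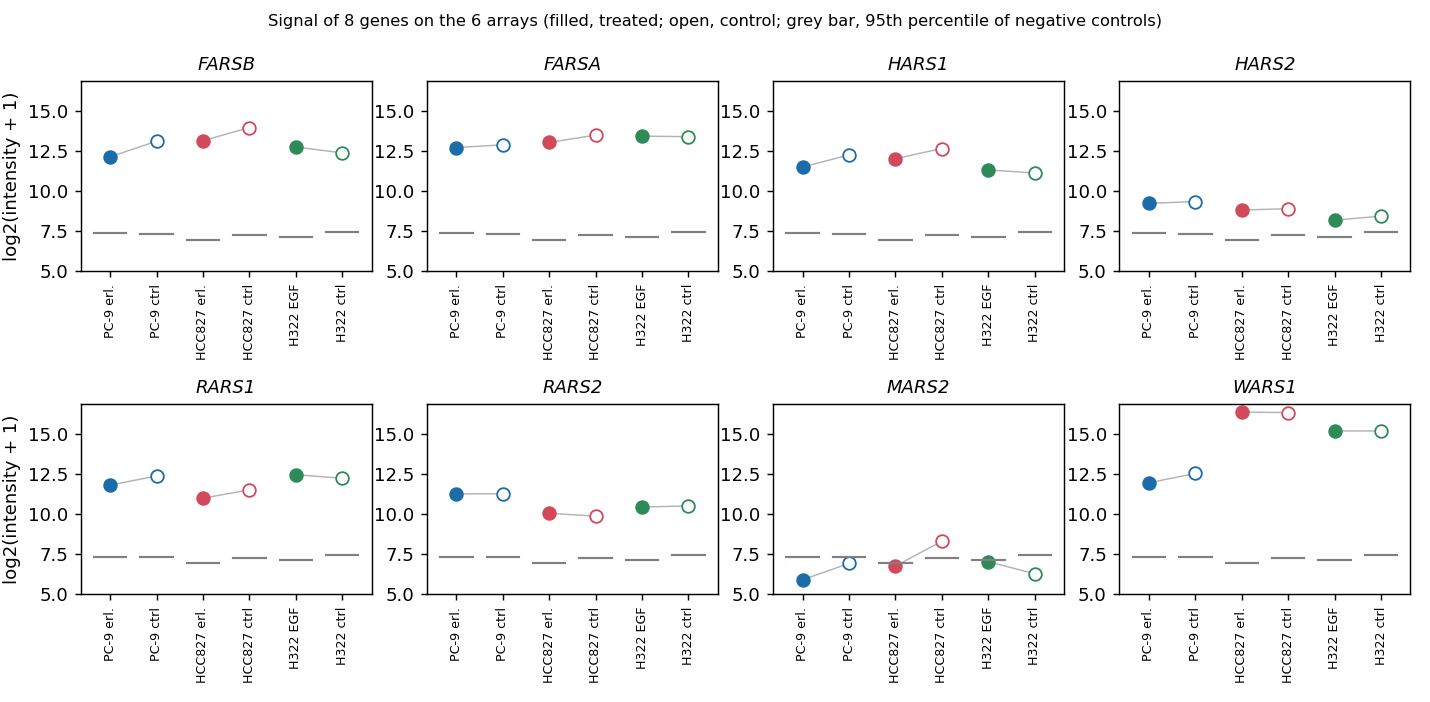
Log2(intensity + 1) of FARSB, FARSA, HARS1, HARS2, RARS1, RARS2, MARS2 and WARS1 on each of the 6 arrays. Filled points are treated arrays, open points are controls, thin lines join the pair of a line, and grey bars are the 95th percentile of the negative controls. FARSB, HARS1 and RARS1 are below control in both erlotinib pairs and above it in the EGF pair, MARS2 lies near the grey bars, and WARS1 is set apart by line.

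FARSB and FARSA encode the 2 kinds of subunit of 1 enzyme, the cytosolic phenylalanyl-tRNA synthetase. FARSA, the alpha subunit, had 12.74 with erlotinib and 12.90 in control in PC-9, and 13.05 with erlotinib and 13.52 in control in HCC827. FARSA was thus also below control in both lines (-0.31 ± 0.14, limma adjusted p = 0.383). The FARSB difference was more negative than the FARSA difference by 0.81 in PC-9 and 0.37 in HCC827, on the log2 scale. With EGF in H322 FARSB had 12.77 against 12.40 in control and FARSA 13.45 against 13.42. The difference between the subunits was not tested.

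The head-to-head pair HARS1 and HARS2, whose shared stretch is printed above, gave unlike values. HARS2 had 9.24 with erlotinib and 9.35 in control in PC-9, and 8.82 with erlotinib and 8.91 in control in HCC827, which is 1.08-fold and 1.06-fold lower. With EGF in H322 HARS1 was 1.14-fold higher (11.33 against 11.14 in control) and HARS2 was 1.19-fold lower (8.19 against 8.44 in control). HARS1 minus HARS2 differences were thus -0.65 in PC-9, -0.55 in HCC827 and 0.44 in H322, with no test.

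As a class the cytosolic synthetases gave different counts in PC-9 and in HCC827, a difference that was not tested. In PC-9, 15 of 16 were below control with erlotinib, against 49.5% of the 7405 genes above the negative controls on all 6 arrays, and the median difference was -0.27. In HCC827, 8 of 16 were below control, against 43.8% of those genes, with a median of -0.003, but with arrays centred on their medians the count was 13 and with quantile normalization 11. In PC-9 the corresponding counts were 14 under both scalings. Over all genes detected on every array, the share below control in HCC827 was 51.7% with centring and 49.5% with quantile normalization. Centring took the HCC827 median of all 17687 genes to -0.0845, against -0.00459 without it. The 5 members that changed sign with centring (GARS1, LARS1, NARS1, TARS1 and WARS1) had been between 0.01 and 0.04 above control. How the deposited arrays were scaled is not given in the sources used here.

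Several cytosolic genes were below control in PC-9 and close to or above it in HCC827. The tryptophan enzyme WARS1 had 11.97 in PC-9 with erlotinib and 12.56 in its control, and 16.40 with erlotinib and 16.37 in control in HCC827. The tyrosine enzyme YARS1 had 10.83 with erlotinib and 11.41 in control in PC-9, and 12.42 with erlotinib and 12.44 in control in HCC827. Differences in PC-9 were -0.38 for the glycine enzyme GARS1 and -0.33 for the threonine enzyme TARS1, against 0.02 and 0.01 in HCC827. AARS1, CARS1 and EPRS1 had opposite signs, with -0.20 (PC-9) and 0.28 (HCC827) for the alanine enzyme AARS1, -0.16 and 0.34 for the cysteine enzyme CARS1, and -0.08 and 0.35 for EPRS1, which charges both glutamate and proline tRNAs. None of these 7 passed in limma (adjusted p between 0.50 and 0.949), and the difference between the lines was not tested.

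The remaining cytosolic synthetases and AIMP1 did not pass in limma either. The lysine enzyme KARS1 differed by -0.10 in PC-9 and -0.09 in HCC827, the asparagine enzyme NARS1 by -0.03 and 0.03, the leucine enzyme LARS1 by -0.12 and 0.04, and the serine enzyme SARS1 by 0.02 and -0.25. The scaffold AIMP1 differed by -0.21 and -0.38 (limma adjusted p = 0.478). Among the 5 measured enzymes of the multi-synthetase complex all were below control in PC-9 and 3 in HCC827, with medians of -0.12 and -0.09, and among the 11 others 10 were below control in PC-9 and 5 in HCC827, with medians of -0.33 and 0.01. The detected genes had 49.5% and 43.8% below control, as above, and the difference between the 2 classes was not tested.

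The mitochondrial synthetases had no member past the threshold. Among the 9 that were detected on every array, 6 were below control with erlotinib in PC-9 and 5 in HCC827, with medians of -0.12 and -0.02, against 49.5% and 43.8% of all genes detected that way. Apart from MARS2, the mitochondrial members below control in both lines were YARS2, HARS2 and LARS2, the last below the negative controls on every array. The tyrosine enzyme YARS2 had 10.56 against 10.85 in control in PC-9 and 9.81 against 10.19 in HCC827. Its mean difference was -0.33 ± 0.19 (limma adjusted p = 0.485). The serine enzyme SARS2 had 8.49 with erlotinib and 8.31 in control in PC-9, and 8.19 with erlotinib and 8.80 in control in HCC827. The phenylalanine enzyme FARS2 was 1.40-fold and PARS2 1.38-fold higher with erlotinib in PC-9, while both differed by -0.02 in HCC827. The asparagine enzyme NARS2 differed by -0.35 in PC-9 and 0.20 in HCC827, the isoleucine enzyme IARS2 by -0.12 and 0.24, and the tryptophan enzyme WARS2 by 0.22 and -0.09.

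**Figure D2:**
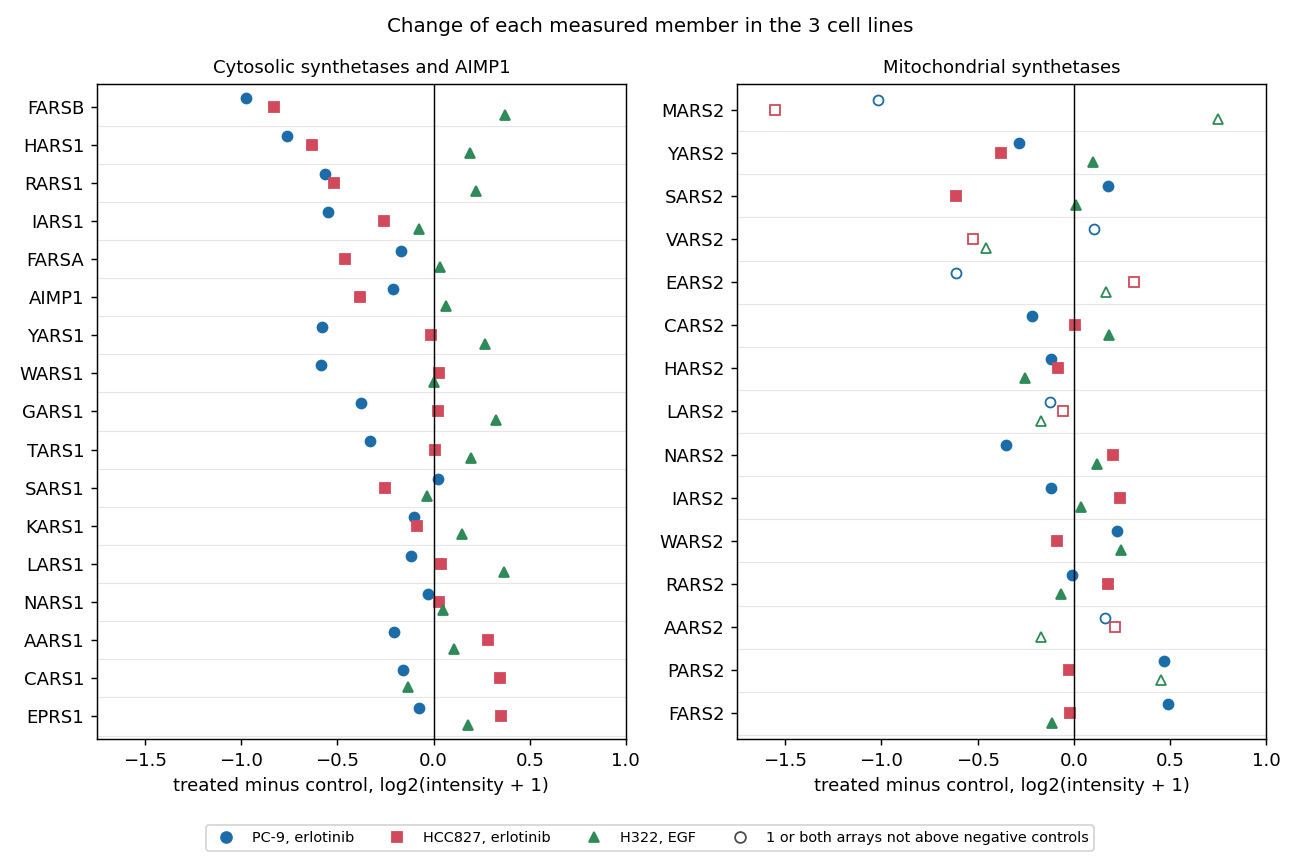
Treated minus control, in log2(intensity + 1), for the 32 measured members, cytosolic synthetases with AIMP1 on the left and mitochondrial synthetases on the right, ordered by the mean over both erlotinib pairs. Circles are PC-9 and squares HCC827 with erlotinib, triangles H322 with EGF, and open symbols have 1 or both arrays not above the negative controls. FARSB, HARS1 and RARS1 lie left of 0 in both erlotinib pairs and right of it with EGF.

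Counted in single lines at 1.5-fold, with the higher signal above the negative controls, 0 members were higher and 3 lower with erlotinib in PC-9, namely FARSB, HARS1 and WARS1. Of all genes 4.01% were higher and 4.72% lower by that measure. In HCC827 0 members were higher and 4 lower, namely FARSB, HARS1, MARS2 and SARS2, against 7.86% of all genes higher and 5.21% lower. Of the 26 members above the negative controls on all 6 arrays 3 were lower in each line. Of the 7405 genes detected that way 438 were higher and 545 lower in PC-9, and 889 and 624 in HCC827. WARS1 in PC-9 was at the 1.5-fold limit and SARS2 in HCC827 just past it, at 1.53-fold lower. At 2-fold the counts of lower members were 0 in PC-9 and 1 in HCC827, MARS2, where 1.76% and 1.92% of all genes were lower.

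Taking the lines side by side, 12 of 32 members (37.5%) were below control in both, against 29.6% of all genes, and 1 of 32 was above control in both, against 30.0%. That 1 was AARS2, whose signals were below the negative controls. The 12 were the cytosolic FARSA, FARSB, HARS1, IARS1, KARS1, RARS1 and YARS1, the mitochondrial HARS2, LARS2, MARS2 and YARS2, and AIMP1. Opposite signs in the 2 lines were seen for 19 members (59.4%), against 40.4% of all genes, but for 13 members (40.6%) against 41.0% with centred arrays and 14 (43.8%) against 40.2% with quantile normalization. Under those scalings 17 and 16 of the 32 members were below control in both, against 31.1% and 28.9% of all genes. The median of the mean differences was -0.17 for the cytosolic members, -0.09 for the mitochondrial members and -0.00027 for all genes.

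**Figure D3:**
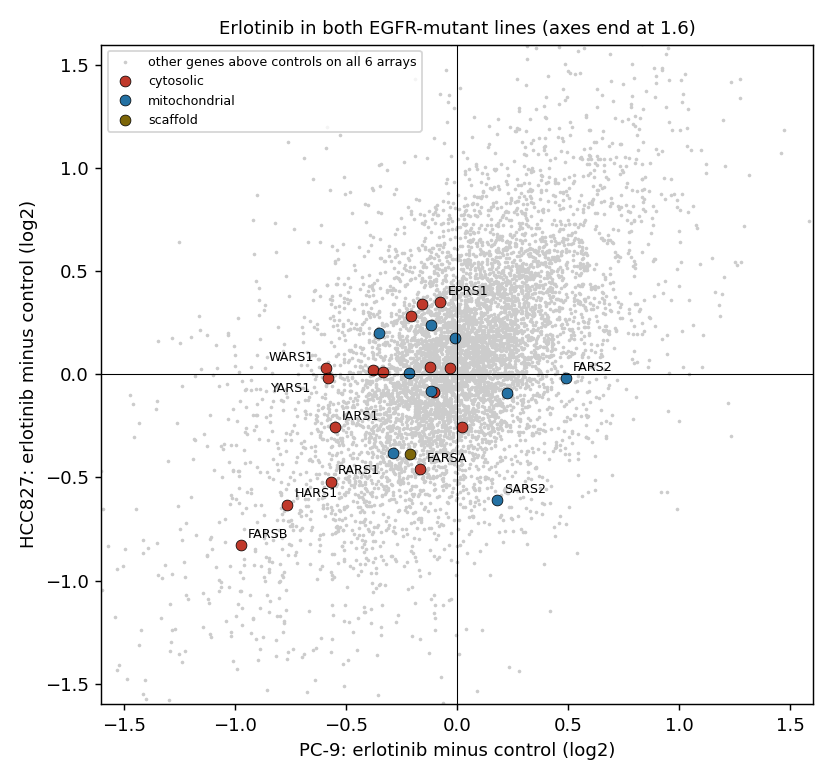
Erlotinib minus control in PC-9 (x axis) and in HCC827 (y axis), in log2 units, 1 point per gene above the negative controls on all 6 arrays, with grey points for other genes and coloured points for members. Axes end at 1.6 in both directions. FARSB, HARS1, RARS1 and IARS1 lie at lower left, WARS1 and YARS1 lie left of 0 on the PC-9 axis and near 0 on the HCC827 axis, and SARS2 lies below 0 on the HCC827 axis and right of 0 on the PC-9 axis.

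For 14 cytosolic and mitochondrial pairs of the same amino acid the changes can be set side by side, and in 10 of them both partners were above the negative controls on all 6 arrays. In 5 of those 10 the cytosolic difference was the more negative in both EGFR-mutant lines, and in 1 the more positive. The 5 were FARSA with FARS2, FARSB with FARS2, HARS1 with HARS2, IARS1 with IARS2 and RARS1 with RARS2, the first 2 of which share FARS2. The RARS1 difference was more negative than that of RARS2, the mitochondrial arginine enzyme, by 0.56 in PC-9 and 0.70 in HCC827, and RARS2 itself differed by -0.01 and 0.18. CARS1 with CARS2 ran the other way, and CARS2 differed by -0.21 in PC-9 and by 0.01 in HCC827, next to the CARS1 values above.

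The second question was what the ligand did in cells with the wild-type receptor. No member with a signal above the negative controls reached 1.5-fold with EGF in H322, where 1.15% of all genes were higher and 0.842% lower. Of the cytosolic synthetases 13 of 16 were above control, against 51.4% of the genes above the negative controls on all 6 arrays, with a median difference of 0.17. The count was 12 with centred arrays or with quantile normalization. FARSB was 1.29-fold, LARS1 1.29-fold and GARS1 1.25-fold higher, the largest among members above the negative controls on both arrays. LARS1 had 11.39 with EGF and 11.03 in control, and GARS1 14.45 with EGF and 14.12 in control. CARS1, IARS1 and SARS1 were the 3 below control, with differences of -0.13, -0.07 and -0.03, and WARS1 had 15.22 on both arrays. MARS2 had 7.03 with EGF and 6.28 in control, both below the negative controls. Of the 9 mitochondrial members detected on every array 6 were above control, with a median of 0.04, against the same 51.4%.

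Across the 3 lines, 9 members were below control with erlotinib in both EGFR-mutant lines and above control with EGF in H322, which is 28.1% of the 32, against 18.3% of all genes. They were FARSA, FARSB, HARS1, KARS1, RARS1 and YARS1 of the cytosolic enzymes (6 of 16), MARS2 and YARS2 of the mitochondrial enzymes, and AIMP1, with both MARS2 signals below the negative controls in PC-9 and in H322. For FARSB the differences were -0.97 in PC-9, -0.83 in HCC827 and 0.37 in H322, for HARS1 -0.76, -0.63 and 0.19, and for RARS1 -0.57, -0.52 and 0.22. Of the 26 members above the negative controls on all 6 arrays 8 had these signs (30.8%), against 21.3% of genes detected that way. With 1 array per condition in each line the opposite signs were not tested.

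The third comparison was between the lines themselves, HCC827 over PC-9, from the line term of the same limma fit. In it the erlotinib and the control array of a line serve as its replicates, so culture and line cannot be told apart. Of the 32 members 15 were higher in HCC827, 5 were lower and 12 did not pass, while 19.0% of all genes were higher and 19.9% lower. Of the 26 members above the negative controls on all 6 arrays 12 were higher and 5 lower, against 27.0% higher and 29.0% lower among all 7405 such genes. Without a trend of the spread in limma 10 members were higher and 5 lower.

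WARS1 had the widest difference between lines of any member. Its signal was 16.40 and 16.37 on the HCC827 erlotinib and control arrays, against 11.97 and 12.56 on the PC-9 erlotinib and control arrays, and the lines did not overlap. The gene, on chromosome 14 at 100333790 to 100376327, encodes the cytosolic tryptophan enzyme and is known to be induced by interferon gamma. The difference was 4.12 ± 0.16, or 17.4-fold (limma adjusted p = 1e-06, n = 2 arrays per line). H322 stood between them with 15.22 on its control array, 6.31-fold above the PC-9 control and 2.23-fold below the HCC827 control. Its mitochondrial partner WARS2 had 10.23 and 10.32 in HCC827 against 10.53 and 10.30 in PC-9 (limma adjusted p = 0.642).

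The cytosolic synthetases were mostly higher in HCC827, with 11 of 16 higher, 2 lower and 3 not past the threshold. Of all genes above the negative controls on all 6 arrays 27.0% were higher and 29.0% lower. After WARS1 came YARS1 (1.31 ± 0.19, limma adjusted p = 0.000929), with 12.42 and 12.44 in HCC827 against 10.83 and 11.41 in PC-9. CARS1 was higher by 1.10 ± 0.20, KARS1 by 0.99 ± 0.12, FARSB by 0.93 ± 0.14 and GARS1 by 0.79 ± 0.13, and IARS1, NARS1, FARSA, HARS1 and SARS1 by 0.45 to 0.62. AIMP1 was higher by 0.64 ± 0.16. In limma without a trend IARS1, NARS1, FARSA, HARS1, SARS1 and AIMP1 no longer passed, so the class count depends on that setting. The 2 lower cytosolic members were TARS1 (-1.12 ± 0.15) and RARS1 (-0.84 ± 0.16), with limma adjusted p values of 0.000782 and 0.00372. TARS1 had 12.05 and 12.04 in HCC827 against 13.00 and 13.33 in PC-9. AARS1, EPRS1 and LARS1 had limma adjusted p values between 0.117 and 0.351.

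The mitochondrial synthetases were spread to both sides, with 3 of 15 higher in HCC827, 3 lower and 9 not past the threshold. Of all genes 19.0% were higher and 19.9% lower, close to these counts. RARS2 (-1.31 ± 0.18), the cysteine enzyme CARS2 (-1.13 ± 0.20) and YARS2 (-0.70 ± 0.19) were lower. RARS2 had 10.06 and 9.88 in HCC827 against 11.28 and 11.29 in PC-9, and CARS2 had 9.37 and 9.36 in HCC827 against 10.39 and 10.61 in PC-9. PARS2 was higher by 0.87 ± 0.25, and the other 2 rest on dim signals, since AARS2 was below the negative controls on all 4 arrays and MARS2 on 3 of 4. The arginine enzymes RARS1 and RARS2 were thus both lower in HCC827, whereas the tyrosine and cysteine enzymes differed in opposite directions, the cytosolic one higher and the mitochondrial one lower.

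**Figure D4:**
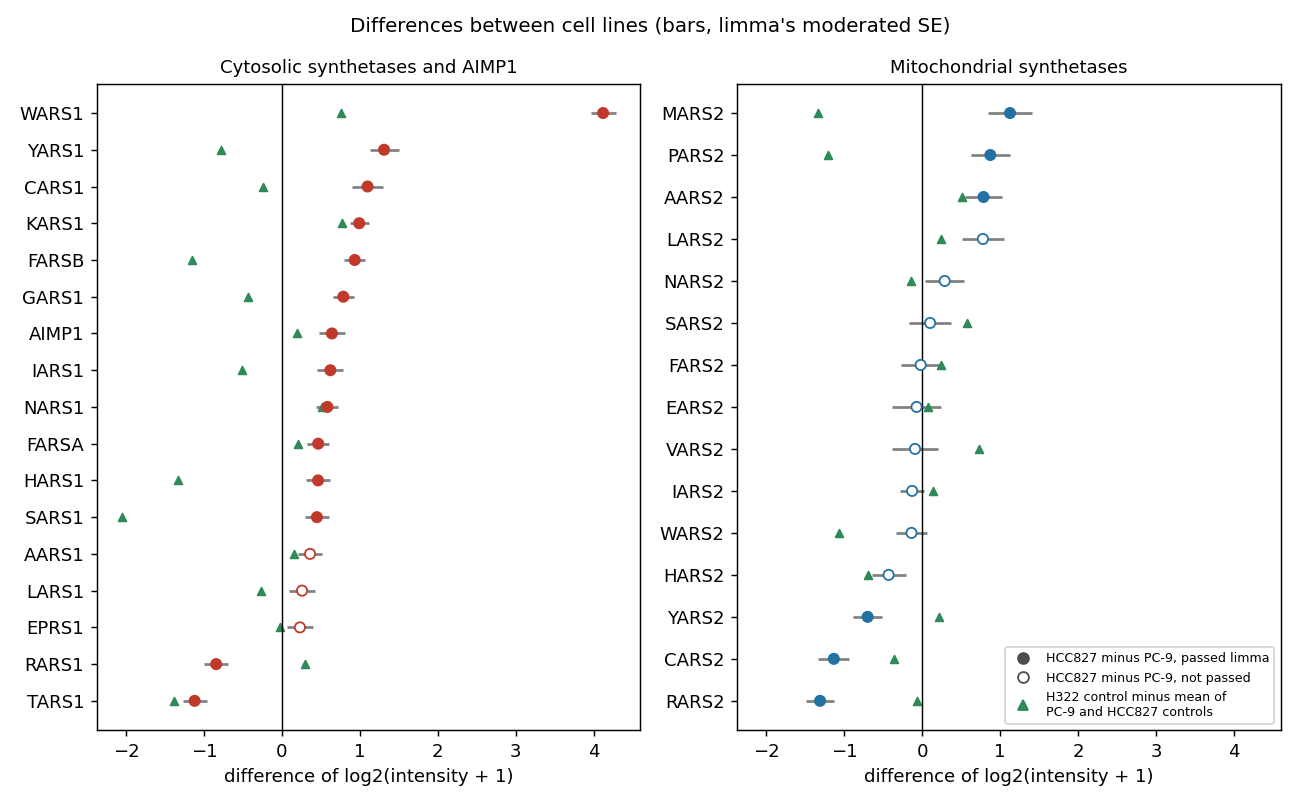
HCC827 minus PC-9 (circles, bars are limma's moderated SE, filled where the adjusted p is under 0.05) and H322 control minus the mean of the PC-9 and HCC827 controls (triangles, no error), both as differences of log2(intensity + 1), for cytosolic synthetases with AIMP1 (left) and mitochondrial synthetases (right). WARS1 lies at 4.12, most other cytosolic circles lie right of 0, and SARS1 has the lowest triangle, at -2.06.

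The H322 control array was set against the mean of the PC-9 and HCC827 controls, with no test, and those controls also enter the comparison of HCC827 with PC-9. At 1.5-fold 2 members were higher in H322, KARS1 (0.77) and WARS1 (0.75), where 17.0% of all genes were. Line by line, KARS1 was 2.40-fold above the PC-9 control and 1.21-fold above the HCC827 control. WARS1 lay between those controls, 6.31-fold above PC-9 and 2.23-fold below HCC827. There were 9 lower members, where 15.2% of all genes were lower. Of the 26 members above the negative controls on all 6 arrays 2 were higher and 7 lower. Of the 7405 genes detected that way 2104 were higher and 1632 lower. SARS1 had 10.52 on the H322 control array, against 12.28 on the PC-9 control and 12.87 on the HCC827 control, and TARS1 had 11.30 in H322, against 13.33 in PC-9 and 12.04 in HCC827. HARS1, FARSB, WARS2, YARS1 and HARS2 had differences between -1.33 and -0.69. YARS1 was 2.46-fold below the HCC827 control but 1.21-fold below the PC-9 control. The other 2, MARS2 and PARS2, were below the negative controls on the H322 control array, and MARS2 on the PC-9 control array too. Against the HCC827 control MARS2 was at least 1.80-fold and PARS2 at least 2.64-fold lower in H322, and against the PC-9 control PARS2 was at least 1.21-fold lower. Both partners of the head-to-head pair were lower in H322. HARS1 had 11.14 in H322, against 12.28 in PC-9 and 12.67 in HCC827, and HARS2 had 8.44 in H322, against 9.35 in PC-9 and 8.91 in HCC827.

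Over the 3 control arrays 11 of 16 cytosolic synthetases were highest in HCC827, 2 in PC-9 (RARS1 and TARS1) and 3 in H322 (AARS1, KARS1 and NARS1). The lowest control was H322 for 9, PC-9 for 6 and HCC827 for 1. Among the 9 mitochondrial members detected on every array 2 were highest in HCC827, 5 in PC-9 and 2 in H322. The order of the lines was not counted over all genes, so these counts have no share to be set against. The 3 controls lay within 0.21 of each other on the log2 scale for AARS1, 0.15 for NARS2 and 0.03 for EPRS1, and they spanned 3.81 for WARS1, 2.35 for SARS1 and 2.03 for TARS1.

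The promoter windows were searched for 2 motifs, and 28 of the 32 measured members matched the RefSeq table, with 39 windows. LARS1, YARS1, AARS2 and VARS2 had no entry. The 9 letters TGATGNAAN, the composite site that ATF4 and its partners can bind, were found on either strand in 6 of 14 cytosolic members (42.9%) and 1 of 13 mitochondrial members (7.69%), against 1215 of 27305 genes (4.45%) in the whole table. The 6 letters CACGTG were found in 1 of 14 cytosolic members, IARS1, and in 3 of 13 mitochondrial members, CARS2, EARS2 and MARS2, against 8.77% of all genes. The 2 motifs were searched separately. The stretches with the composite letters are printed on the strand of the gene, with the match or its reverse complement in capitals.
AARS1, chr16:70289676-70289704, minus strand: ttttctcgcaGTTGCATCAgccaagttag
CARS1, chr11:3057408-3057436, minus strand: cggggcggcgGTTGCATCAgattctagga
GARS1, chr7:30594834-30594862, plus strand: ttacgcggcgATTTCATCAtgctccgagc
IARS1, chr9:92293693-92293721, minus strand: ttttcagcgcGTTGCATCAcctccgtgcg
NARS1, chr18:57621804-57621832, minus strand: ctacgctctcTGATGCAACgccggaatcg
TARS1, chr5:33440956-33440984, plus strand: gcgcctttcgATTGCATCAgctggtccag
YARS2, chr12:32756076-32756104, minus strand: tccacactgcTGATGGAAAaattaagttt

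None of the 4 members with the lowest erlotinib values, FARSB, HARS1, RARS1 and MARS2, held TGATGNAAN in its window, against 7 of all 28 members searched. These 4 were picked by their erlotinib values. The 6 cytosolic members with these letters had a median erlotinib difference of -0.08, with a range of -0.40 to 0.09, and the 8 without had a median of -0.30, with a range of -0.90 to 0.14. FARSB, HARS1 and RARS1 are among those 8, and the difference between the sets was not tested. In H322 the medians with EGF were 0.08 with the letters and 0.17 without. A match is a description of the letters and not of binding.

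Genes of amino acid sensing and the ATF4 pathway were followed as context, 12 of 13 measured, and 1 of them passed with erlotinib. Of all genes 0.916% passed as lower and 0.565% as higher. TRIB3, a pseudokinase and ATF4 target that was above the negative controls on 4 of the 6 arrays, fell by 1.27 ± 0.21 (limma adjusted p = 0.0377), with differences of -1.03 in PC-9, -1.51 in HCC827 and -0.39 with EGF in H322. PHGDH, which starts serine synthesis, had differences of 0.53 in PC-9, 0.94 in HCC827 and 0.004 in H322. PSAT1, the next enzyme of that pathway, had -1.01 in PC-9, -0.17 in HCC827 and -0.18 in H322. DDIT3, a transcription factor of the stress response, was above the negative controls on 1 array. ATF4 itself, named here outside the rule for context genes, differed by -0.07 in PC-9, 0.22 in HCC827 and 0.003 in H322. Between the lines 3 of the 12 were higher in HCC827 and 7 lower in limma, against 19.0% and 19.9% of all genes.

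Of the partners that process, export or use tRNA 16 of 20 were measured, and 0 passed with erlotinib in limma. HCC827 had 5 of them higher and 2 lower than PC-9, against 19.0% and 19.9% of all genes. XPOT, the nuclear export receptor for tRNA, had differences of -0.70 in PC-9, -0.74 in HCC827 and 0.25 in H322 with EGF (-0.72 ± 0.14 with erlotinib, limma adjusted p = 0.0579). SEPSECS, which makes selenocysteinyl-tRNA, had 0.82 in PC-9, 1.66 in HCC827 and -0.39 in H322 (limma adjusted p = 0.0945), with 1 array below the negative controls. DTD2, which removes wrongly attached amino acids, had 0.09 in PC-9, -0.72 in HCC827 and 0.60 in H322, and QRSL1, a subunit of the mitochondrial amidotransferase for glutamine tRNA, had 0.56 in PC-9, -0.59 in HCC827 and 0.10 in H322.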

How the data were processed

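Total RNA of 6 cultures was extracted with Trizol and hybridised as biotin-labelled cRNA to Clarion S arrays, as the labels' protocols state. The authors' deposited values are linear intensities of 24351 probe sets, for which the submitters' processing notes name Affymetrix Expression Console. Neither its version nor how background, summarisation and scaling were handled is given in the sources used here. Array medians lay between 148 and 157, so the values were already on a similar scale, and a shift shared by most genes would not show.

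From these intensities log2(value + 1) was taken, and the brightest probe set per symbol was kept, which gave 17687 genes. The platform annotation gave 17709 probe sets 1 symbol, 0 several and 6642 none, and all 17709 were found in RefSeq (GRCh38.p14) by gene ID. No member had several probe sets. Erlotinib was tested with limma 3.58.1 in R 4.3.3 (lmFit, eBayes with a trend, two-sided) on the 4 PC-9 and HCC827 arrays, blocked by cell line, at 0.05 after Benjamini-Hochberg adjustment across the 17687 genes. Pairing comes from the cell line: across genes the correlation of a line's arrays was 0.991 in PC-9 and 0.988 in HCC827, against 0.907 between their controls. The fit has 1 residual degree of freedom and a median of 6.58 prior degrees of freedom from other genes, so the moderated SE and p-values rest mostly on the spread of other genes. Where 1 array of a pair was below the 95th percentile of the negative controls, a fold is a bound with that array set to the percentile. Single lines, EGF and H322 controls have 1 array per condition and no test, and were counted at 1.5-fold. Precision is limited by the number of arrays. The fit was tested on simulated data.

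The members and lists were chosen with earlier results of these data known. All measured members are accounted for. Of each context list up to 4 genes detected over the negative controls on 1 or more arrays and with the largest mean absolute change over the lines are named, plus every gene that passed, and ATF4 besides. Promoter windows are given for the members with the lowest limma p. Protein sequences were not used here. Alternatives were an offset of 16, centred arrays, quantile normalization, dim signals lifted to the level of the negative controls, a filter on dim genes, no trend, no block, mean of probe sets, single lines and a 2-fold limit.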

Additional observations from a re-analysis of the deposited data

Results flagged for a closer look

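WARS1 and SARS2 had differences of opposite sign with erlotinib in the EGFR-mutant lines, at least 1.5-fold apart, with signals above the negative controls on all 4 arrays. The WARS1 change in HCC827 exceeded that in PC-9 by 0.62 on the log2 scale (0.03 in HCC827, -0.59 in PC-9). WARS1 in HCC827 was thus close to control, and its sign there changed with centred arrays. The SARS2 change in HCC827 minus that in PC-9 was -0.79 (-0.61 in HCC827, 0.18 in PC-9). With 1 array per condition in each line the difference was not tested for either gene.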

How the results depend on the processing

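The number of members that passed as lower with erlotinib, 1 in the fit as described, was 3 with centred arrays, 3 with quantile normalization, 2 with dim signals lifted to the negative controls, 0 with the filter on dim genes and 0 in limma without a trend. Without the replicate block (cell line) it was 0, with 0 members at an unadjusted p under 0.05 and 0 genes called in all, and FARSB had an adjusted p of 1. Over all genes the count of lower calls was 162, against 309 with centred arrays, 450 with quantile normalization, 582 with dim signals raised, 69 with the filter and 1 without a trend. No member passed as higher in limma under any of these settings. From single lines the FARSB difference ranged from -0.97 to -0.83. At 2-fold the lower members were 0 in PC-9 and 1 in HCC827. With centred arrays 13 cytosolic members were below control in HCC827, while the median of all genes there went to -0.0845. With dim signals raised, the median EGF difference of the mitochondrial members was -0.066, but that setting took the median of all genes to -0.341 in H322, -0.349 in HCC827 and -0.25 for HCC827 minus PC-9.

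Of the limma differences of single members 5 changed sign. With erlotinib they were NARS1 (-0.024 with centred arrays) and AARS2 (-0.17 with dim signals raised). For HCC827 minus PC-9 they were AARS2 and LARS2 (each -0.25 with dim signals raised) and FARS2 (0.0054 with centred arrays). Centring took the median of all genes to -0.0248 with erlotinib and to 0.0794, against 0.0546, between the lines. AARS2 and LARS2, dim on all arrays, had with dim signals raised the difference of the raised levels themselves, as did the median gene (-0.168 and -0.25). Between the lines FARSA, HARS1, IARS1, NARS1, SARS1 and AIMP1 no longer passed without a trend (limma adjusted p from 0.0506 to 0.144), MARS2 no longer passed with dim signals raised, LARS2 passed with centred arrays, quantile normalization and no trend, and AARS1 with quantile normalization. The cause of the other shifts was not tested. AARS2, EARS2, LARS2 and VARS2 were below the negative controls on all 6 arrays and have no fold, and MARS2 and PARS2 have a bound or none in pairs with a dim array.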
